A study of Homo sapiens with 2 samples.

Results

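The BEX (brain expressed, X-linked) and TCEAL (transcription elongation factor A-like) genes are short neighbouring genes on the long arm of human chromosome X. The 9 genes described here are BEX1, BEX2, BEX3, BEX4, TCEAL1, TCEAL2, TCEAL4, TCEAL8 and TCEAL9, taken as all probe sets annotated to exactly 1 of these symbols. They came to 9 probe sets, 1 for each gene, while 19775 genes in all had their own probe set. The genes were chosen with results of these same arrays in view, so their values are a description and carry no test. They were measured in SW620, an established human colorectal cancer line grown from a lymph node metastasis, on 1 single-colour Affymetrix array for each group. In the SOX2 knockdown group a lentivirus delivered a short hairpin RNA to SOX2, and in the mock knockdown group a lentiviral hairpin without a target. Both cultures were the same line in RPMI-1640 medium. The titles of both samples end in KO, although the source names and the protocol describe knockdown. The submitters' stated question was which genes SOX2, a DNA-binding factor known from pluripotent cells and neural progenitors, controls in colorectal cancer cells.

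BEX proteins are small adaptor-like proteins known mainly from brain and neuroendocrine tissue. BEX1 and BEX3 bind the low-affinity neurotrophin receptor NGFR, BEX3 as a mediator of the cell death it can trigger, and BEX2 binds the transcriptional adaptor LMO2. TCEAL proteins are named for their likeness to the elongation factor TFIIS, which helps stalled RNA polymerase resume, and TCEAL9 is also known as a protein that binds WW domains. Several genes of both families are reported as silenced or reactivated in tumours.

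The values are probe set intensities made with RMA on a linear scale, and a floor of 68.5, their median, was applied. Of 13609 genes that reached the floor on at least 1 array, here called measured, 992 (7.29%) were lower on the SOX2 knockdown array by at least 2-fold and 1148 (8.44%) higher by as much. All differences are log2 SOX2 knockdown minus mock knockdown. With 1 array in each group no difference has a replicate check, and precision is limited by the number of arrays. The only spread that could be measured was that between probe sets of one gene on this pair of arrays, an SD of 0.49 over 6440 genes with several probe sets. Each of the 9 genes had 1 probe set, so none has even this check. The median intensity was 68.1 on the SOX2 knockdown array and 69.0 on the mock array. SOX2 itself stood at 20.9 on the SOX2 knockdown array and 2077 on the mock array with its brightest probe set, and at 120 and 333 with the next. All 11 colorectal epithelial markers were measured, with a median difference of 0.29. EPCAM stood at 9898 on the SOX2 knockdown array and 8910 on the mock array, while KRT20 and LGALS4 were under the floor on the mock array and, with SOX2 knockdown, higher by at least 157-fold and 87.7-fold. CDH17 also reached the floor only on the SOX2 knockdown array, at least 1.14-fold higher, and VIL1 differed by -1.25. The sample descriptions also mention mouse liver. In a list of 5 liver markers ALB was under the floor on both arrays, the other 4 were measured, and SERPINA1 stood at 4301 on the SOX2 knockdown array and 313 on the mock array. In a list of 5 leukocyte markers PTPRC and CD3E were under the floor on both arrays, and both measured genes were higher with SOX2 knockdown by at least 2-fold. These were LYZ, at 11691 on the SOX2 knockdown array and 213 on the mock array, and CD14, at 156 and 43.6 on the same arrays. The part of these genes in the BEX and TCEAL differences was not tested.

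Of the 9 genes 7 were measured, and all 7 had the lower value on the SOX2 knockdown array. Over all measured genes 6877 of 13609 had the lower value on that array. BEX2, BEX3, TCEAL1, TCEAL4 and TCEAL8 were at least 2-fold lower, TCEAL9 and BEX1 were lower by less, and BEX4 and TCEAL2 lay under the floor on both arrays. None was at least 2-fold higher. In bulk RNA, fewer cells that express a gene and less RNA per cell cannot be told apart. The median difference of the 7 was -2.16, beside -0.01 over all measured genes. Because the genes were chosen from this contrast, nothing is read from 5 of 7 standing beside 7.29%. The mock array had 7 of the 9 above the floor and the SOX2 knockdown array 5, and for the same reason nothing is read from these counts.

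**Figure D1:**
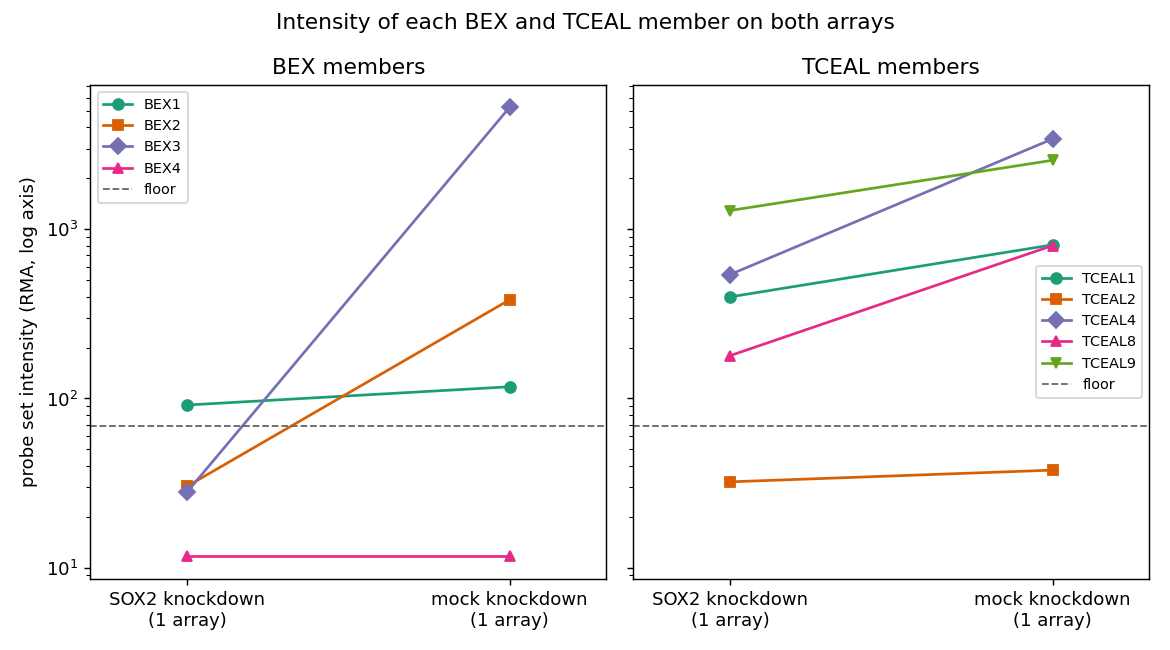
Intensity on a log axis of each of the 9 genes on the SOX2 knockdown array (left) and the mock knockdown array (right), BEX genes in the first panel and TCEAL genes in the second, with the floor of 68.5 as a dashed line. BEX3 and BEX2 cross the floor, while TCEAL4, TCEAL8, TCEAL1 and TCEAL9 are lower on the SOX2 knockdown array and stay above it.

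BEX3, the adaptor of NGFR, had the largest difference of the 9. Its probe set stood at 28.0 on the SOX2 knockdown array and 5256 on the mock array, a log2 difference of -7.55 as deposited. The lower value is under the floor, so only a bound holds, and BEX3 was at least 76.7-fold lower. As deposited it was the 5th most negative difference of 13609 genes. The suffix s_at of this probe set marks probes that can match more than 1 transcript.

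BEX2, the partner of LMO2, likewise reached the floor only on the mock array. It stood at 30.3 on the SOX2 knockdown array and 383 on the mock array, a difference of -3.66 as deposited, and was at least 5.59-fold lower. It ranked 84 from the lowest. BEX1, which like BEX3 binds NGFR, stood close to the floor on both arrays, at 91.4 on the SOX2 knockdown array and 117 on the mock array. Its difference of -0.36 is smaller than the SD of 0.49 between probe sets of one gene. BEX4, a BEX protein tied to microtubules, had the identical value of 11.7 on both arrays, under the floor. Such identical pairs occurred in 1128 probe sets, and they give no information on a difference.

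The promoters of the 4 BEX genes fall into 2 pairs of like sequence, shown because the genes of each pair differ in their values. RefSeq promoter windows of GRCh38.p14, which run from 250 bases before to 50 bases after each annotated start, were found for all 9 genes, 13 windows in all. Places are counted from the start, with -1 for the base before it. BEX2 and BEX4 share an unbroken run of 45 bases, which among 35116 windows occurred only in those of BEX2 and BEX4. The last 150 bases before the first start of each are printed with that run in capitals.
BEX2 (chrX:103310991-103311140, minus strand): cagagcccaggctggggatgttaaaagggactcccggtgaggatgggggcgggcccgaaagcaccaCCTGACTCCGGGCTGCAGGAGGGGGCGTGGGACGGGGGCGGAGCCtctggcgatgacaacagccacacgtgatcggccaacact
BEX4 (chrX:103214942-103215091, plus strand): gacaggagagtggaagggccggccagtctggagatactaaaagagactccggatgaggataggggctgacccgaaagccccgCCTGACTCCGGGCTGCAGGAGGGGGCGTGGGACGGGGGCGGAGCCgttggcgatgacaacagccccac

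The run lies from -84 to -40 in BEX2 and from -68 to -24 before the first start of BEX4. Counted from the second start of BEX4, it also lies from -84 to -40. BEX2 was above the floor on the mock array, while BEX4, with the same run, was under it on both. BEX1 and BEX3 share a run of 35 bases, from -239 to -205 in BEX1 and from -33 to 2 at the first of 3 starts of BEX3. Counted from the second start of BEX3, the same run lies from -248 to -214, near its place in BEX1. That run was found in no window of another gene.
BEX1 (chrX:103064366-103064420, minus strand): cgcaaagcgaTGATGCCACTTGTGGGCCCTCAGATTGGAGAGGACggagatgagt
BEX3 (chrX:103376280-103376324, plus strand): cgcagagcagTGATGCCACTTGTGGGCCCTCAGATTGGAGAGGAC

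Within this pair too the values differed, with -0.36 for BEX1 and -7.55 as deposited for BEX3. The mock value of BEX1, 117, is itself close to the floor of 68.5.

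Among the TCEAL genes, TCEAL4 had the largest difference. It stood at 540 on the SOX2 knockdown array and 3420 on the mock array, which is 15.8% of the mock value, or 6.33-fold lower. Its log2 difference was -2.66, and it ranked 172 from the lowest of 13609 genes. TCEAL8 stood at 179 on the SOX2 knockdown array and 801 on the mock array, 22.3% of the mock value and a difference of -2.16. Both genes reached the floor on both arrays, so their folds are values and not bounds. The difference of TCEAL4 exceeded that of TCEAL8 by 0.50, which is about the SD between probe sets of one gene.

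TCEAL1, a nuclear phosphoprotein, stood at 399 on the SOX2 knockdown array and 810 on the mock array, 49.2% of the mock value. TCEAL9, the WW domain binder, stood at 1291 on the SOX2 knockdown array and 2559 on the mock array, 50.5% of the mock value. These genes lie on either side of the limit, TCEAL1 with a difference of -1.02 and TCEAL9 with -0.99, and they are 0.04 apart. TCEAL1 is therefore counted as at least 2-fold lower and TCEAL9 is not, although their differences are alike within the spread between probe sets. TCEAL2 stood at 32.2 on the SOX2 knockdown array and 37.7 on the mock array, under the floor on both.

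TCEAL8 and TCEAL9 share a run of 31 bases at their starts, which was found in the windows of 3 genes. It is shown because these genes of the family differ in size of difference, -2.16 for TCEAL8 and -0.99 for TCEAL9, with the run in capitals.
TCEAL8 (chrX:103255153-103255193, minus strand): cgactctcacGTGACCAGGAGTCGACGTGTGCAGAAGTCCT
TCEAL9 (chrX:103356462-103356505, plus strand): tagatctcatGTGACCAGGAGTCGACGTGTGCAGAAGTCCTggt

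TCEAL2 shares a run of 38 bases with TCEAL3, a family gene outside the 9, and the run was found in the windows of 4 genes. TCEAL2 was under the floor on both arrays, while TCEAL3 was measured.
TCEAL2 (chrX:102125631-102125678, plus strand): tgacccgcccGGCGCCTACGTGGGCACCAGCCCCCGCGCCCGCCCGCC
TCEAL3 (chrX:103607887-103607944, plus strand): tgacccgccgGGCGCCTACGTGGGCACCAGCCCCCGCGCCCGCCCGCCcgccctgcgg

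In order of size, the measured differences ran from BEX3 through BEX2, TCEAL4, TCEAL8, TCEAL1 and TCEAL9 to BEX1. The steps between neighbours in that order ran from 0.04, between TCEAL1 and TCEAL9, to 3.89, between BEX3 and BEX2, on the log2 scale. The SD of 0.49 between probe sets is that of 1 value, and a step joins 2, so its spread would be wider. The step of 0.04 is under this SD. Those of 0.50 between TCEAL4 and TCEAL8 and 0.63 between TCEAL9 and BEX1 are not far above it, and the others are larger. This SD does not measure variation between arrays. The step of 3.89 rests on 2 values under the floor, and against the floor BEX3 and BEX2 differed by -6.26 and -2.48. On that scale BEX2, at -2.48 or lower, and TCEAL4, at -2.66, cannot be ordered.

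**Figure D2:**
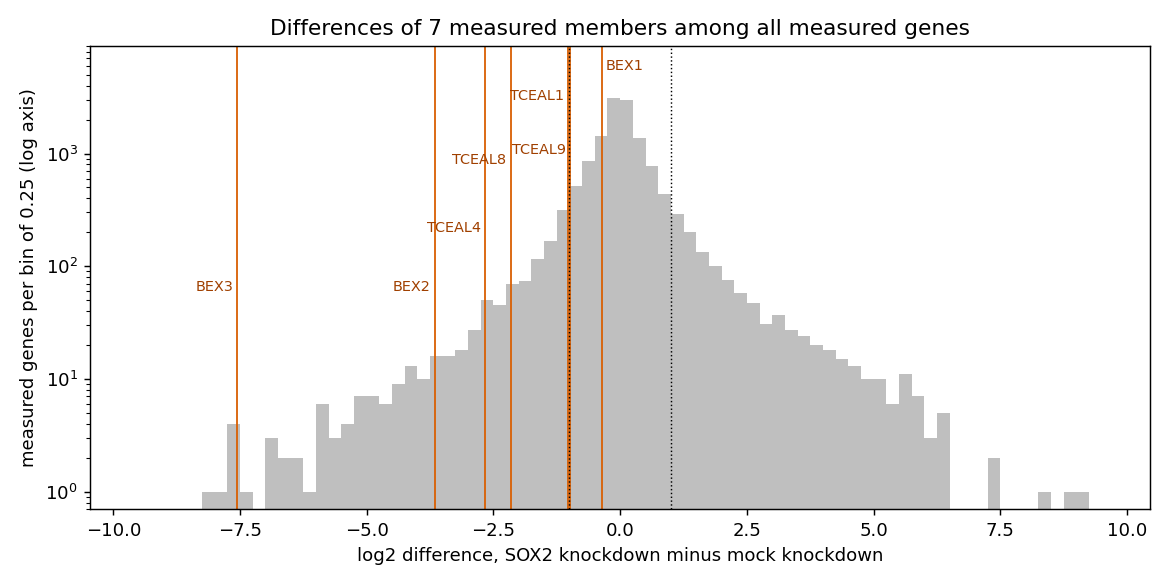
Histogram of log2 differences, SOX2 knockdown minus mock knockdown, of all 13609 measured genes in bins of 0.25 (grey, log axis for the number of genes), with the 7 measured BEX and TCEAL genes as orange lines and the limits of 2-fold as dotted lines. TCEAL1 at -1.02 and TCEAL9 at -0.99 sit on the lower limit, and BEX3 at -7.55 lies at the edge of the distribution.

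The remaining genes of both families were BEX5, TCEAL3, TCEAL5, TCEAL6 and TCEAL7, of which 3 had a probe set of their own and 2 were measured. BEX5, a further BEX adaptor, stood at 25.1 on the SOX2 knockdown array and 366 on the mock array and was at least 5.34-fold lower. TCEAL3 stood at 287 on the SOX2 knockdown array and 407 on the mock array, a difference of -0.50. TCEAL7, described as silenced in ovarian cancer, was under the floor on both arrays, at 9.55 on the SOX2 knockdown array and 10.3 on the mock array. The levels of TCEAL5 and TCEAL6 were not analysed here.

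All of these genes lie near each other on chromosome X, so the genes among and beside them were described as well. The stretch held 47 protein-coding genes, from 10 before TCEAL2 to 10 after TCEAL1 in gene order, of which 33 belong to neither family. Of these 33, 21 had a probe set and 10 were measured. All 10 had the lower value on the SOX2 knockdown array, beside 288 of 413 measured genes of chromosome X. Among them GPRASP3, RAB40AL and ZCCHC18 reached the floor only on the mock array. The floor thus fixed their sign, and nothing is read from 10 of 10. At least 2-fold lower were 4 of the 10, and 3 when values under the floor were taken at the floor. The median difference of the 10 was -0.73, and with no floor that of all 21 was -0.18. ZCCHC18 stood at 44.7 on the SOX2 knockdown array and 160 on the mock array, at least 2.33-fold lower. ARMCX6, of the armadillo repeat genes of this cluster, stood at 928 on the SOX2 knockdown array and 2187 on the mock array, a difference of -1.24. GPRASP3 stood at 33.9 on the SOX2 knockdown array and 93.1 on the mock array, a difference of -1.46 as deposited but only -0.44 against the floor. RAB40A, between BEX3 and TCEAL4 in gene order, stood at 69.9 on the SOX2 knockdown array and 72.6 on the mock array, a difference of -0.06, just above the floor on both. MORF4L2, next after TCEAL1 in gene order, stood at 7995 on the SOX2 knockdown array and 9027 on the mock array, a difference of -0.17. RAB40A, for its place, and MORF4L2, for its level, were named after their values were seen.

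Chromosome X as a whole also leaned lower. On the SOX2 knockdown array 72 of its 413 measured genes (17.4%) were lower by 2-fold or more and 36 (8.72%) higher by as much. Outside both families 66 of 404 were at least 2-fold lower and 36 higher, with a median difference of -0.21, beside 0.00 over 13196 measured genes not on chromosome X. The part of this shift in the differences of the BEX and TCEAL genes was not tested.

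**Figure D3:**
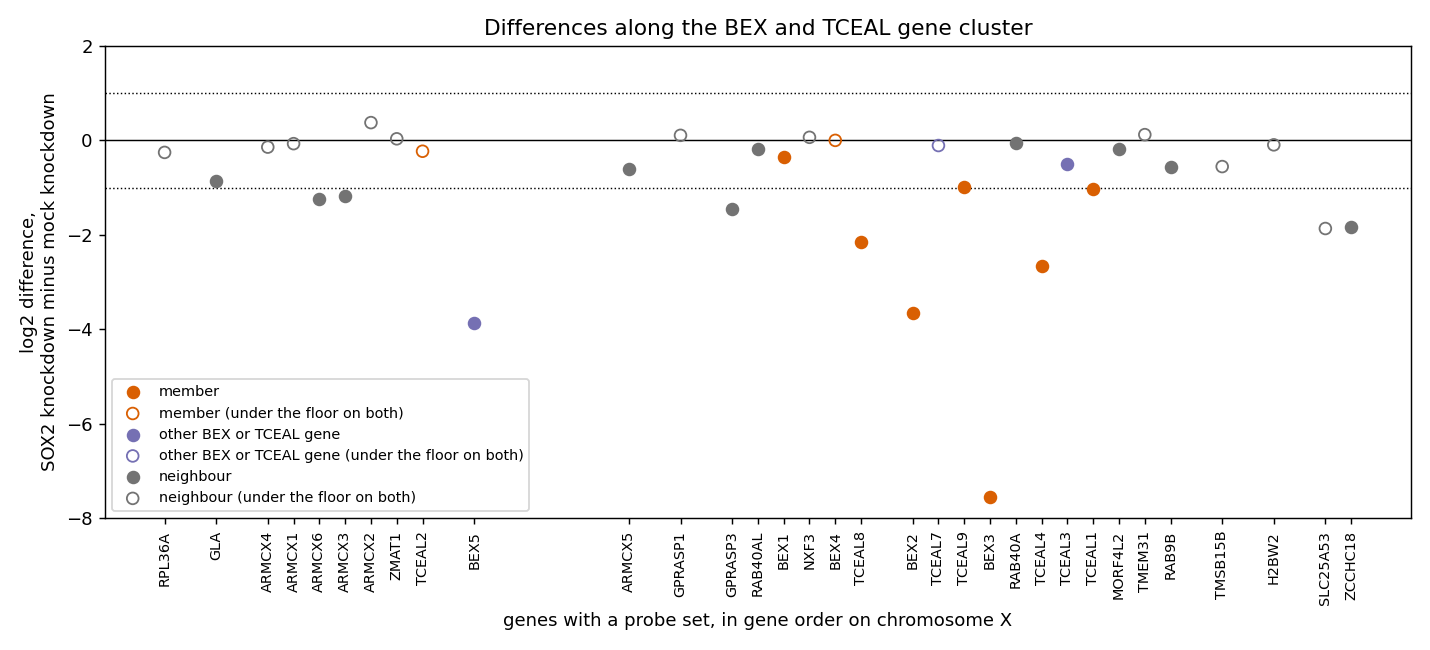
Log2 difference, SOX2 knockdown minus mock knockdown, of genes with a probe set along the cluster on chromosome X, in gene order and not to physical scale, with the 9 genes in orange, other BEX and TCEAL genes in purple and neighbours in grey, and open symbols for genes under the floor on both arrays. Measured neighbours run from -1.84 to -0.06, while BEX5, BEX2 and BEX3 lie at -3.86, -3.66 and -7.55 as deposited.

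The promoter windows were searched on both strands for letters bound by SOX proteins and for other motifs. The SOX motif CATTGTT was in 0 of the 13 windows, beside 3.33% of all windows. Its shorter core ACAAT, which CATTGTT holds on its other strand, was in 3 of the 13, of the genes TCEAL1 and TCEAL8, beside 27.4% of all windows, and TATAAA was in 0 windows, beside 11.5% of all. These absences say only that the letters are not in these windows.

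The palindrome TCACGTGA, a form of E-box, was in 6 of the 13 windows, 1 each of BEX1, BEX3, TCEAL1, TCEAL2, TCEAL4 and TCEAL8, beside 344 of 35116 windows, or 0.980%. This motif was picked after the windows were compared, so the share is a description, and family genes that arose by duplication are not independent. Its inner part CACGTG, which every TCACGTGA contains, was in 9 of the 13 windows, from 8 of the 9 genes, beside 7.26% of all windows. TCEAL9 held only the looser CANNTG, which also contains CACGTG and was in 11 of the 13 windows, from all 9 genes, beside 68.7% of all windows. The 30 bases around TCACGTGA are shown for these genes and for TCEAL3 to let the flanks be compared, with the palindrome in capitals. For BEX3 and TCEAL1 they come from the window of the second annotated start.
BEX1 (chrX:103064201-103064230, minus strand): acgcacggcccTCACGTGAccgggagctgc
BEX3 (chrX:103376479-103376508, plus strand): acgcgcggcccTCACGTGAcccagagctgc
TCEAL1 (chrX:103628907-103628936, plus strand): acgcgcgtcccTCACGTGAccaggagcctc
TCEAL8 (chrX:103255169-103255198, minus strand): tgacgcgactcTCACGTGAccaggagtcga
TCEAL2 (chrX:102125615-102125644, plus strand): tgacgcggtgcTCACGTGAcccgcccggcg
TCEAL3 (chrX:103607871-103607900, plus strand): tgacgcggcgcTCACGTGAcccgccgggcg
TCEAL4 (chrX:103585493-103585522, plus strand): ggctgcggcatTCACGTGAtctgcacgggc

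The palindrome began at -48 in BEX1 and in BEX3, at -57 in TCEAL1, at -32 in TCEAL8, at -53 in TCEAL2 and at -11 in TCEAL4. Genes with it ranged from -7.55 as deposited for BEX3 to -0.36 for BEX1, whose values lie close to the floor. TCEAL2 was under the floor on both arrays and gives no information on a difference. Genes without it were BEX2 at -3.66 as deposited, TCEAL9 at -0.99 and BEX4 under the floor. The part of the motif in the differences was not tested.

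**Figure D4:**
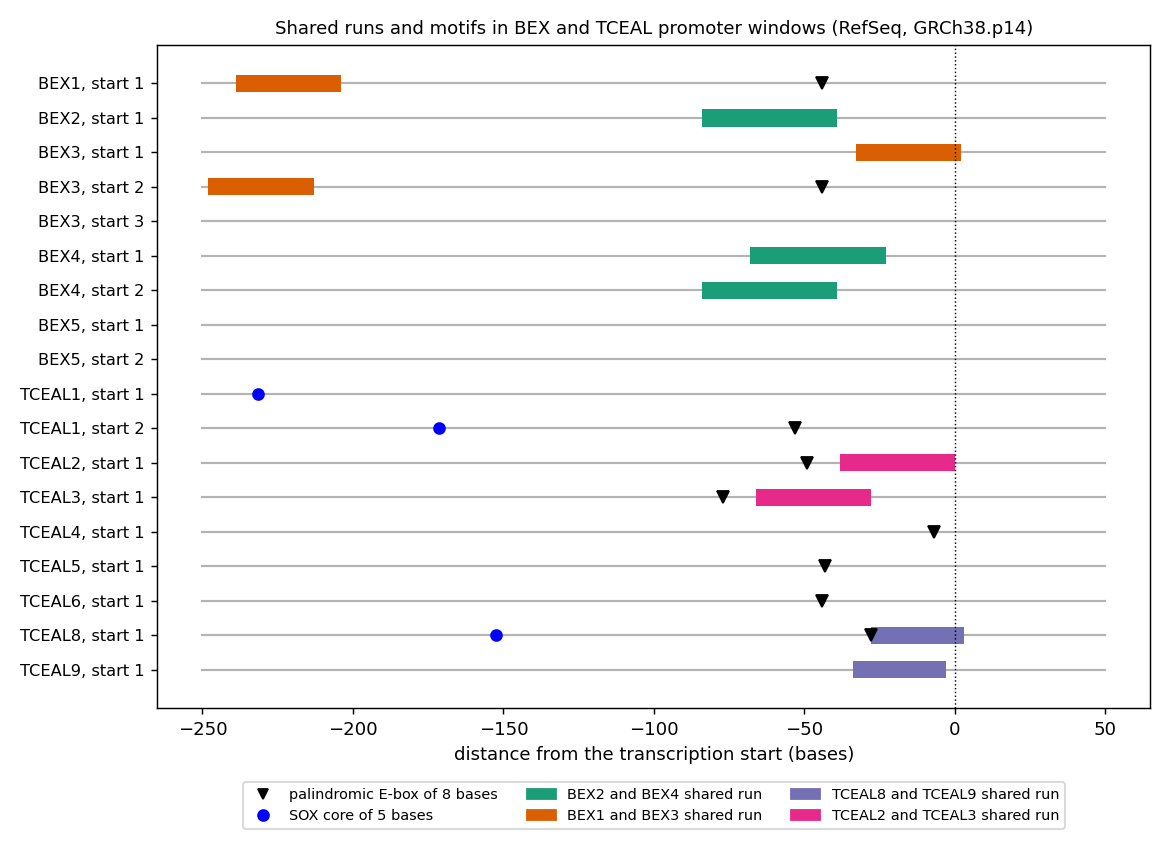
Promoter windows of 13 BEX and TCEAL genes from 250 bases before to 50 after each annotated start, numbered from the most upstream start. Triangles mark TCACGTGA and circles ACAAT. Coloured bars mark the runs shared by BEX2 and BEX4, BEX1 and BEX3, TCEAL8 and TCEAL9, and TCEAL2 and TCEAL3. Runs shared by other pairs, such as that of 43 bases in TCEAL3 and TCEAL6, are not drawn. The palindrome begins between -81 and -11 in each of the 9 windows that hold it.

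Genes tied to the functions of the families were described from fixed lists. Beside their counts, 7.29% of all measured genes were at least 2-fold lower and 8.44% higher. With so few genes in a list, nothing is read from these counts. ARMCX and GASP genes had 5 of 10 members measured, of which ARMCX3, ARMCX5, ARMCX6 and GPRASP3 are among the neighbours counted above and ARMC10, at 0.58, lies on another chromosome. In this list 3 were at least 2-fold lower as deposited, 2 against the floor and 0 higher, with a median of -1.19. ARMCX3, a mitochondrial protein, stood at 410 on the SOX2 knockdown array and 933 on the mock array, and its 2 probe sets differed by -1.19 and -0.88. Of neurotrophin receptor genes 11 of 18 were measured, with a median of -0.19. Of these, 1 was at least 2-fold lower as deposited but 0 against the floor, and 1 was higher. NTRK2 was not measured, though 1 of its 6 probe sets reached the floor and differed by -2.19. The 2 probe sets of BDNF differed by 0.06 and 1.73. NGFR, the receptor bound by BEX1 and BEX3, stood at 39.6 on the SOX2 knockdown array and 110 on the mock array and was at least 1.61-fold lower. MAGED1, a further NGFR-binding protein, stood at 1456 on the SOX2 knockdown array and 2350 on the mock array, and the kinase IRAK1 at 7857 and 3635 on the same arrays.

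Transcription elongation genes had 22 of 24 measured, 2 at least 2-fold lower and 3 higher, with a median of 0.10. TCEA2, a TFIIS gene of the kind that TCEAL genes are named for, stood at 94.4 on the SOX2 knockdown array and 408 on the mock array, a difference of -2.11. Its 3 probe sets reaching the floor ran from -2.11 to -0.07, so the size depended on the probe set. The elongation factor genes ELL2 and CCNT1 differed by -1.18 and -0.83. ELOA, AFF1 and ELL3 differed by 1.63, 1.47 and 1.42, and the 4 probe sets of ELOA ran from 0.15 to 1.63. In the LMO2 list 6 of 7 genes were measured, 1 at least 2-fold lower and 1 higher, with a median of -0.13. LMO2, the partner of BEX2, stood at 120 on the SOX2 knockdown array and 313 on the mock array, a difference of -1.39. LMO4, a relative of LMO2, stood at 2429 on the SOX2 knockdown array and 554 on the mock array, with 4 probe sets from 1.02 to 2.13.

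**Figure D5:**
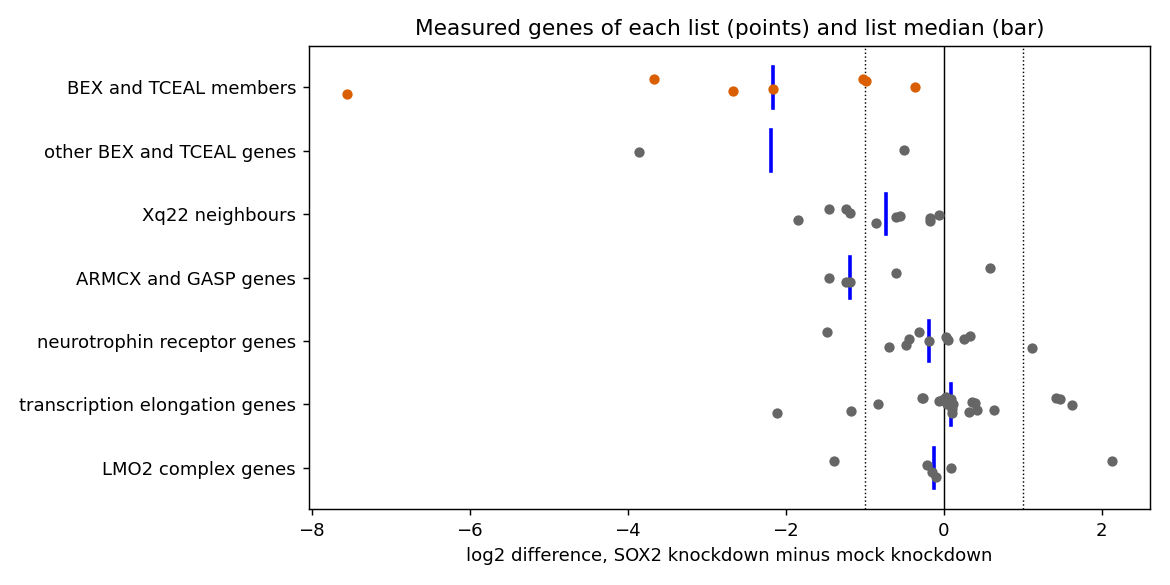
Log2 differences, SOX2 knockdown minus mock knockdown, of the measured genes of each list (points, with vertical jitter) and the median of the list (blue bar), with dotted lines at 2-fold. All 7 measured BEX and TCEAL genes, which were chosen from this contrast, and all 10 measured neighbours lie below 0. So do 6877 of all 13609 measured genes and 288 of the 413 on chromosome X. BEX2, BEX3 and the neighbours GPRASP3, RAB40AL and ZCCHC18 reached the floor only on the mock array, which fixed their sign. The ARMCX and GASP, neurotrophin receptor, elongation and LMO2 lists lie on both sides.

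Because BEX and TCEAL genes are known from brain, neural markers are given beside them. Of 11 neural markers 6 were measured. At least 2-fold lower were 2 and higher 0, beside 7.29% and 8.44% of all measured genes, and nothing is read from so few. The synaptic vesicle protein SYT1 stood at 43.7 on the SOX2 knockdown array and 3820 on the mock array. The progenitor filament NES stood at 46.6 and 869 on the same arrays. Both were under the floor on the SOX2 knockdown array, so only bounds hold, at least 55.7-fold lower for SYT1 and 12.7-fold for NES. The 2 probe sets of NES differed by -4.22 and -0.04. The median over the 6 was -0.22, and the other measured markers were TUBB3 at -0.37, SNAP25 at -0.08, ELAVL4 at -0.02 and SYP at -0.01. The summed intensity of the 11 was 3865 on the SOX2 knockdown array and 9386 on the mock array, a difference carried by SYT1 and NES. The neuronal genes STMN2, NEFL, NEFM and UCHL1 were under the floor on both arrays with every probe set. GAP43 was under it with its brightest probe set by mean, while 1 of its 3 probe sets reached the floor and differed by -2.24. The part of this in the BEX and TCEAL differences was not tested.

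The genes outside the 9 whose log2 values on the 2 arrays lay nearest to those of BEX3 were GAL, TRBC1 and ELOVL5, at Euclidean distances of 0.37, 0.62 and 0.67. GAL, a neuropeptide gene, stood at 31.4 on the SOX2 knockdown array and 6614 on the mock array. TRBC1, a T cell receptor constant region gene, stood at 42.6 and 4892 on these arrays, and the fatty acid elongase ELOVL5 at 17.6 and 5101. Other probe sets of TRBC1 and ELOVL5 that reached the floor differed by as little as -2.92 and -0.42. On the SOX2 knockdown array BEX3, GAL, TRBC1 and ELOVL5 were all under the floor. The distances thus rest in part on values that give only bounds, and the order of the genes is not a measured one. With 2 arrays such likeness rests on 1 difference and 1 level.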

How the data were processed

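Total RNA of SW620 cultures was labelled as biotinylated cRNA with an Affymetrix 3′ expression kit and hybridized to 1 array per group, per the labels' protocols. The authors deposited RMA intensity values for each probe set, with RMA named in the submitters' processing notes. Its version and settings, and how the values came back to a linear scale, were not given in the sources used here. This method usually equalizes the distributions of arrays run together, which hides a change in total RNA. Whether these arrays were run together is not stated, and their medians, 68.1 for SOX2 knockdown and 69.0 for mock knockdown, are not equal.

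Of 54675 probe sets, 62 were array controls. A platform annotation gave 1 symbol for 41091 of the rest, several for 1801 and none for 11721, and 41043 were matched through their Entrez identifiers to a RefSeq table of GRCh38.p14, which changed 0 symbols. That table gave only names and gene order. Log2 was taken of the deposited intensity, with no pseudocount. A gene took its probe set with the highest mean, and was measured if either value reached the median of all values, 68.5. Values under it give folds as bounds against it. No test was run, since each group held 1 array, and a limit of 2-fold was used. Counting was tested on simulated data, with less noise than the spread between probe sets. Changes were planted only in genes well above the floor, so the check does not cover genes near or under it.

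The genes and lists were chosen with earlier results of these data known. By rule the text names the 9 genes, their family, SOX2, up to 3 genes of each list in each direction past 1.5-fold, and the 3 nearest genes to BEX3. Cell type markers, and a few genes of the lists and the cluster, lie outside this rule. Those named were chosen after their values were seen. No member had a positive difference, so the same search for one was not made. Promoter sequences are from RefSeq, matched by symbol. Alternatives covered normalization, floor, probe set choice, pseudocount and fold limit. Python 3.11.15, numpy 2.4.6, pandas 2.3.3 and matplotlib 3.10.9 were used.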

Additional observations from a re-analysis of the deposited data

How the results depend on the processing

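At the limit of 2-fold, 4 or 5 of the 9 genes were lower and 0 higher under the 9 other alternatives. With the limit at 1.5-fold 6 were lower, TCEAL9 among them, and at 3-fold 4, without TCEAL1. TCEAL1 was also no longer counted with intensity-dependent centring or with a pseudocount of 32, which gave -0.97, and BEX3 was left out without probe sets open to several transcripts. Differences of TCEAL4, TCEAL8, TCEAL1, TCEAL9 and BEX1 moved by less than the SD between probe sets. Values under the floor set the size for BEX3 and BEX2, which differed by -6.26 and -2.48 with such values raised to the floor and by -6.46 and -2.74 with a pseudocount of 32. The median of the members was -1.02 with no floor, which adds BEX4 and TCEAL2, and -1.59 without shared probe sets, which drops BEX3. The median of other BEX and TCEAL genes was -0.50 with no floor, -1.46 with values raised to the floor and -1.63 with the pseudocount, and that of the neighbours was -0.18 with no floor. Over all measured genes, 514 were lower and 587 higher with the probe set of smallest difference, 2012 and 2044 at 1.5-fold, and 467 and 604 at 3-fold. No paired analysis was possible because each group held 1 array. Signal near the floor limits BEX1, and values under it limit BEX2, BEX3, BEX4 and TCEAL2.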
